A study of Mus musculus with 4 samples.

Results

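The genes that encode the subunits of oxidative phosphorylation were compared between podocytes incubated with IL-12 and control podocytes. Members were the protein-coding genes whose names mark them as subunits of complexes I to V (Nduf a, b, c, s and v, Sdh a to d, Uqcr, Cox4 to Cox8 and Atp5 names) and all protein-coding genes of the mitochondrial chromosome (mt- names). This gave 98 genes of the 54532 rows of the count table, 85 of them nuclear and 13 mitochondrial. By name, 44 belonged to complex I, 4 to complex II, 9 to complex III, 21 to complex IV and 20 to complex V. The rule itself reads only names.

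The cells were MPC5, a conditionally immortalized mouse podocyte line. RNA was sequenced from 2 libraries of the control group, which received saline, and from 2 libraries of the IL-12 treatment group, which received the cytokine at 400 ng/ml over 6 h. Both groups are the same line with no difference in genotype. Whether the 2 libraries of each group stem from separate cultures is not stated, and the p-values then measure only the spread between these libraries, which may be technical. Fold changes are given on the log2 scale for the IL-12 treatment group over the control group, with ± the standard error.

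Oxidative phosphorylation takes place in the inner mitochondrial membrane. Complexes I and II pass electrons from NADH and succinate to ubiquinone, complex III passes them to cytochrome c, complex IV passes them to oxygen, and complex V (ATP synthase) uses the resulting proton gradient to make ATP. Complexes I, III, IV and V combine products of the nuclear genome with products of the small circular mitochondrial genome, whose genes are cut from long shared transcripts, whereas complex II is encoded by nuclear genes alone. Podocytes are the filtering epithelial cells of the kidney glomerulus, and their foot processes depend on an actin cytoskeleton that consumes ATP.

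The total counts were between 18355379 and 20098012 per library, at which 3 counts correspond to 0.149 to 0.163 CPM (counts scaled to a common library size). This floor covers counting error only. Of 13 podocyte markers 9 were tested, with 5 higher and 1 (Synpo) lower after IL-12, and their summed level was 4777 and 4805 CPM after saline and 5422 and 5360 CPM after IL-12. The slit diaphragm gene Nphs1 had at most 1 count in a library and Tcf21 had 0 in each. The 4 mesangial markers summed to 70.0 to 80.6 CPM, the 5 endothelial markers (Emcn and Tie1 at 0) to 0.0536 to 0.498 CPM and the 6 immune markers (Cd3e and Adgre1 at 0) to 4.98 to 7.19 CPM. The 7 tubule markers (Umod and Slc34a1 at 0) summed to 670 and 642 CPM after saline and 511 and 552 CPM after IL-12, nearly all of it Lrp2, which was lower (log2 change -0.27 ± 0.03, adjusted p = 8.70e-06, edgeR's quasi-likelihood test). The part of these markers in the results was not tested. In bulk RNA, fewer cells of a type and less RNA per cell cannot be told apart.

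Few subunit genes were called, and the differences were small. Of the 98 members, 89 had enough counts to be tested, and the other 9 had at most 11 counts in a library. At an adjusted p below 0.05 from edgeR's quasi-likelihood test, 5 were higher and 5 were lower in the IL-12 treatment group, which is 11.2% of the members tested. Over all 14095 genes tested, 30.5% passed the same threshold, with 16.1% higher and 14.4% lower. With total counts as the only scaling, 1 member was higher and 8 were lower, against 30.9% of all genes called. The genes called higher were mt-Cytb, mt-Nd1, mt-Nd2, Uqcrq and Atp5b, and those called lower were mt-Co1, mt-Co2, Ndufa6, Ndufv3 and Atp5s. With the screening criteria of an adjusted p below 0.05 and a change over 2-fold, 0 members passed, against 1.61% of all genes. At an unadjusted p below 0.05, 16 of the 89 members passed, against 39.4% of all genes tested. DESeq2's Wald test called 2 members, mt-Cytb and Uqcrq, against 19% of all genes. The calls were not the same in every fit. mt-Cytb was called in 14 of 17 other fits, Atp5s in 13, Uqcrq in 12, Ndufa6 in 11, mt-Co1 and mt-Co2 in 10, Ndufv3 in 9, mt-Nd2 and Atp5b in 7, and mt-Nd1 in 5. Each of the 10 kept its direction in all 17.

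The size of the change could be bounded for most members. The 95% interval of the fold change lay within 1.5-fold in either direction for 85 of the 89 members (95.5%), which was the case for 68.8% of all genes tested. The 4 exceptions were mt-Co2, Atp5s, Cox4i2 and Ndufa12. Members were also expressed at high levels, where intervals are narrower: their median standard error was 0.0543 on the log2 scale, against 0.0813 for all genes tested. For 35 of the 89 members both libraries treated with IL-12 fell outside the control range in 1 direction, 21 higher and 14 lower. This was so for 62.9% of all genes tested.

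Nuclear and mitochondrial members had 5 calls each. Among 77 nuclear members tested, 2 were higher and 3 were lower (6.49%), with a median log2 change of 0.02. Among 12 mitochondrial members tested, 3 were higher and 2 were lower (41.7%), with a median of -0.01. The median over all genes tested was -0.0022, with an interquartile range of -0.17 to 0.15. The difference between these shares was not tested, because genes are not replicates of a condition. The precision differed as well, since the median standard error was 0.0310 for mitochondrial and 0.0544 for nuclear members. By complex, 4 of 43 members of complex I were called, 0 of 4 of complex II, 2 of 9 of complex III, 2 of 15 of complex IV and 2 of 18 of complex V. The median log2 changes of the nuclear members were 0.01 for complex I, 0.01 for complex II, 0.04 for complex III, 0.02 for complex IV and 0.04 for complex V.

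**Figure D1:**
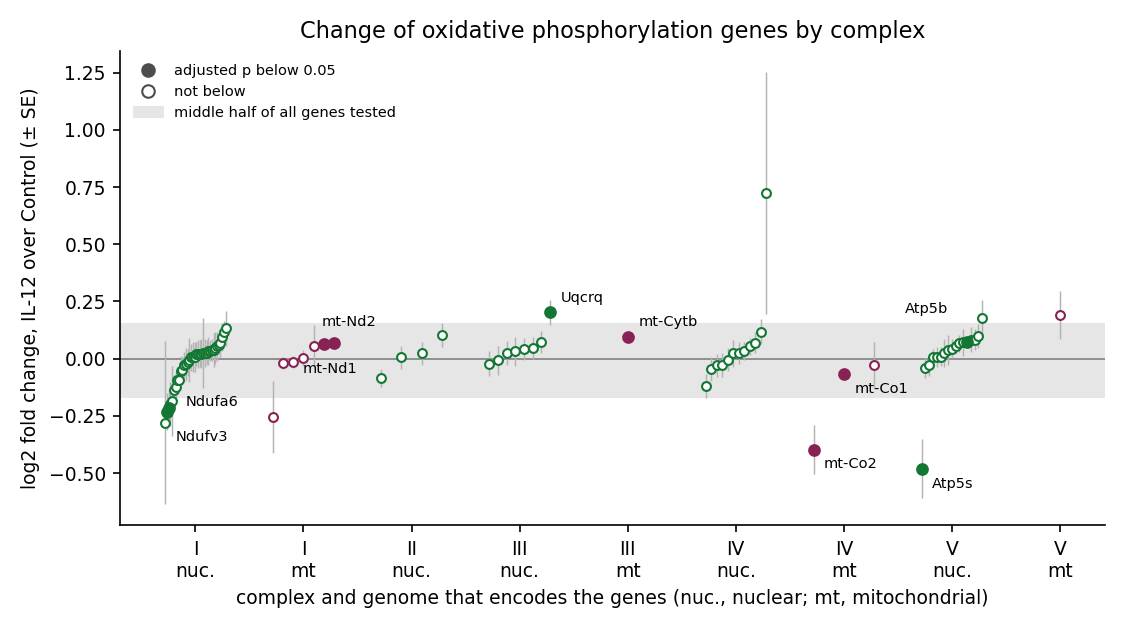
The vertical axis gives the log2 change of the IL-12 treatment group over the control group with its standard error for each of the 89 members tested, sorted within complex and genome. Filled points passed an adjusted p below 0.05 (5 higher, 5 lower), and the grey band is the interquartile range of all 14095 genes tested, -0.17 to 0.15, within which most members lie.

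The total output of the 2 genomes did not separate the groups. Mitochondrial protein-coding genes took 2.01% and 1.95% of all counts after saline and 1.91% and 1.96% after IL-12. Nuclear subunit genes took 0.791% and 0.824% after saline and 0.817% and 0.784% after IL-12. The groups overlapped for both shares. The ratio of mitochondrial to nuclear counts was 2.54 and 2.37 after saline and 2.34 and 2.50 after IL-12, and again overlapped. In 2 libraries against 2, a two-sided exact permutation test of a single value cannot give a p below 0.333, so that these sums and ratios are described by whether the groups overlap. By complex, the nuclear share overlapped between the groups for complexes I, III, IV and V. For complex II it was 0.0450% and 0.0457% after saline and 0.0445% and 0.0425% after IL-12, which did not overlap. This separation holds for shares of total counts, which lack the scaling used for the gene tests. After that scaling only Sdha was lower (log2 change -0.08), whereas Sdhb, Sdhc and Sdhd had 0.10, 0.01 and 0.02.

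**Figure D2:**
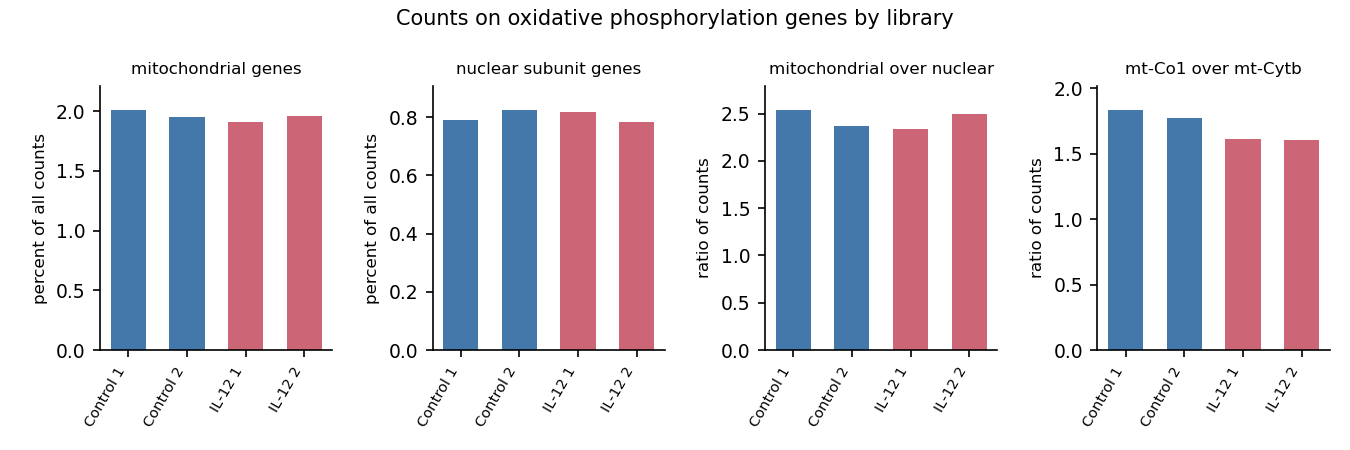
Bars give, for each of the 4 libraries, the share of all counts on the 13 mitochondrial and the 85 nuclear genes (percent), the ratio of these sums, and the ratio of mt-Co1 to mt-Cytb counts. The first 3 measures overlap between the groups, whereas the mt-Co1 to mt-Cytb ratio is 1.83 and 1.77 after saline and 1.62 and 1.60 after IL-12. This ratio was chosen after the values were seen, and its separation follows from that of its genes.

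Part of the mitochondrial genes have near-identical copies in the nuclear genome. Such copies are known throughout the mouse genome, and on chromosome 1 the annotation lists 7 neighbouring pseudogenes on the minus strand (chr1:24611535-24616197, GRCm38) that copy mt-Co1, mt-Co2, mt-Atp6, mt-Co3, mt-Nd3, mt-Nd4l and mt-Nd4 in their mitochondrial order. A read from a copied stretch matches both places. Gm28661 held all of mt-Co2 except its last 3 bases, with 681 of 681 aligned bases identical, and Gm10925, Gm28437 and Gm10222 were likewise identical to mt-Atp6, mt-Co3 and mt-Nd4l over 678, 783 and 294 bases. Gm28439 matched the first 876 bases of mt-Nd4. The other 2 each differed at 1 base of their alignment. Gm29216 differed from the last 483 bases of mt-Co1 by A1066T, and Gm28438 from mt-Nd3 by T3C. Positions are counted from 1 at the first base of the mitochondrial gene. For Gm29216 the longest identical run was 479 bases, so that A1066T lies at the edge of the alignment. A substitution within the copy and the end of the copy cannot be told apart there. The start of mt-Co2 (MT:7013-7072, plus strand) and of its copy (chr1:24615506-24615565, minus strand) show what a read aligner would see, with the start codon in capitals:
mt-Co2: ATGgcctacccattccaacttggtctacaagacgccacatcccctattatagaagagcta
Gm28661: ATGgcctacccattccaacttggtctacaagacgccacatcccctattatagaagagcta
For mt-Nd3 (MT:9459-9481) and Gm28438 (chr1:24613097-24613119), the capital marks the only base that differed:
mt-Nd3: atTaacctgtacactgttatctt
Gm28438: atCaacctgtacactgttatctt
For mt-Co1 (MT:6381-6413) and Gm29216 (chr1:24616165-24616197), the capital marks A1066T. The alignment of the 2 genes starts at position 1063, and the stretches also differ at bases to the left of it:
mt-Co1: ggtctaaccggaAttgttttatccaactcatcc
Gm29216: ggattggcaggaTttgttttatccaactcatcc

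Levels between genes were compared as deposited FPKM values, in which counts are scaled to gene length and library size. The 5 mitochondrial genes with under 10% of their 50-base stretches in another annotated gene and enough counts to test, mt-Nd1, mt-Nd2, mt-Nd5, mt-Nd6 and mt-Cytb, had mean levels of 791 to 3611 FPKM. mt-Co1, with 51.1% shared (28.7% with Gm29216), had 4551 FPKM, and mt-Nd4, with 62.2% shared, had 1081 FPKM. The 5 genes with over 90% shared had far lower levels, 43.8 FPKM for mt-Co2, 27.5 for mt-Atp6, 20.01 for mt-Co3, 62.3 for mt-Nd3 and 19.8 for mt-Nd4l. In every library these 5 lay below the other 7 genes tested. Adding the counts of the copies left these 5 genes at 158 to 1121 counts per library, against 7552 or more for mt-Nd6, the least abundant of the first 5. mt-Atp8, which shared 0% and so is an exception to this order, was the lowest of all 13, with 11 and 8 counts after saline and 5 and 8 after IL-12, and was not tested. No annotated gene shared a 50-base stretch with mt-Atp8, which lies between mt-Co2 and mt-Atp6, and the genome itself was not searched. mt-Co1, mt-Co2, mt-Atp6 and mt-Co3 are cut from the same heavy-strand transcripts. How reads with several matches were counted is not given in the sources used here, and the part of this in the low levels was not tested. Levels of the 5 genes with over 90% shared are therefore uncertain.

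**Figure D3:**
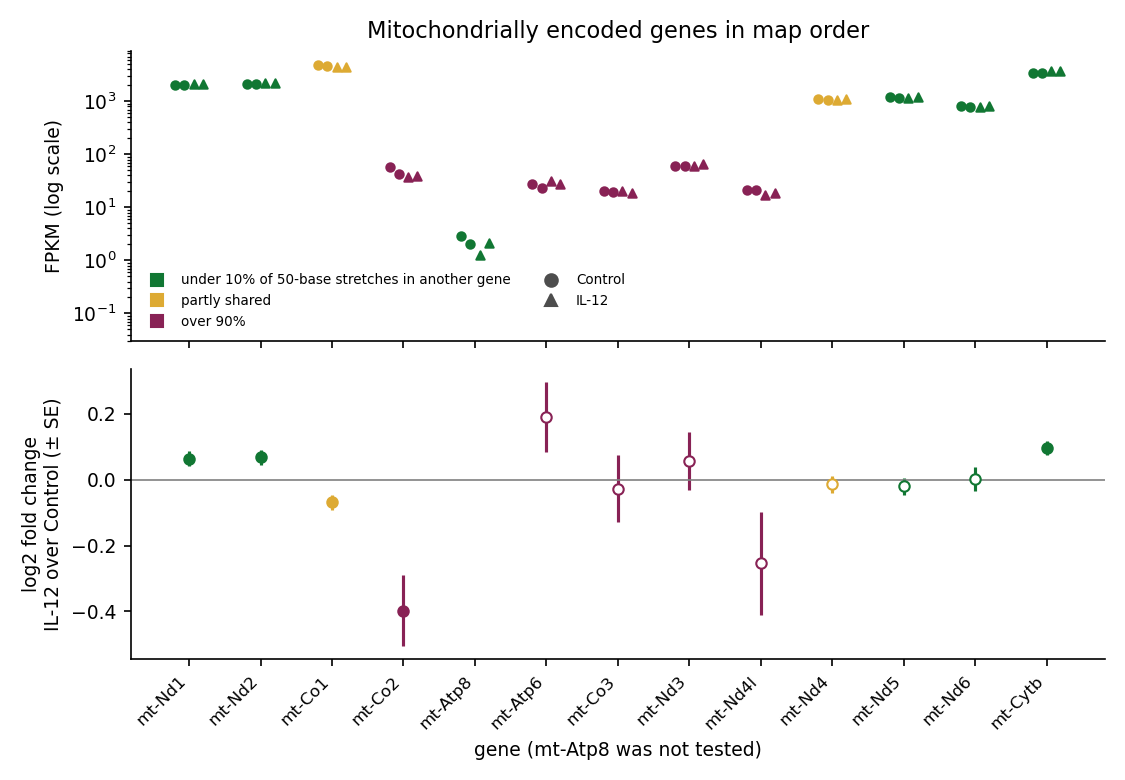
The upper panel gives the FPKM (log axis) of the 13 mitochondrial genes in map order for each library (circles, control group; triangles, IL-12 treatment group), coloured by the share of 50-base stretches that another annotated gene holds, and the lower panel the log2 change with its standard error (filled, adjusted p below 0.05). The 5 genes with over 90% shared lie between 19.8 and 62.3 FPKM in the mean, below every gene that shares less except mt-Atp8.

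Complex I genes of the mitochondrial genome encode its membrane core, through which protons are pumped. mt-Nd1 (ENSMUSG00000064341, MT:2751-3707) was at 1982 and 1944 CPM after saline and 2053 and 2050 CPM after IL-12. It was higher by 0.06 ± 0.02 on the log2 scale (adjusted p = 0.0430, edgeR's quasi-likelihood test). mt-Nd2 (ENSMUSG00000064345, MT:3914-4951) was at 2221 and 2191 CPM after saline and 2292 and 2334 CPM after IL-12, a log2 change of 0.07 ± 0.02 (adjusted p = 0.0310). For both genes the groups did not overlap, but the rise was about 1.05-fold and was not called with total counts as the only scaling, with the replicate block or with any single library left out. mt-Nd3, mt-Nd4, mt-Nd5 and mt-Nd6 overlapped between the groups, with log2 changes of 0.06, -0.01, -0.02 and 0.00. mt-Nd6 is the only one of these genes on the light strand and overlaps mt-Nd5 by 14 bases, and the strand setting of the counting is not given in the sources used here. mt-Nd4l was at 6.39 and 6.41 CPM after saline and 5.16 and 5.58 CPM after IL-12. Its log2 change of -0.25 ± 0.16 did not pass the test (adjusted p = 0.250, edgeR).

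Of the nuclear complex I genes, the 7 core genes, whose products oxidise NADH and carry the iron-sulfur chain, included 0 calls, and their median log2 change was 0.02. The 29 accessory genes tested included 2 calls, both lower. Ndufa6 (ENSMUSG00000022450, chr15:82350140-82354322), which encodes an accessory subunit at the matrix arm, was at 39.2 and 42.9 CPM after saline and 38.0 and 32.6 CPM after IL-12. This was a log2 change of -0.21 ± 0.08 (adjusted p = 0.0431, edgeR). Ndufv3 (ENSMUSG00000024038, chr17:31520115-31531326), an accessory subunit of the NADH-oxidising module, was at 28.8 and 28.6 CPM after saline and 25.4 and 23.4 CPM after IL-12. The log2 change was -0.23 ± 0.08 (adjusted p = 0.0338, edgeR). The groups did not overlap for either gene. The second IL-12 library was the lowest for both, and without it neither was called. Ndufa6 was also lost without the second control library, and Ndufv3 with any of the 4 libraries left out.

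Ndufa12, an accessory subunit gene of complex I that was singled out after its values were seen, varied more within the groups than between them. It had 169 and 691 counts after saline and 272 and 434 after IL-12. The control values lay outside the IL-12 values on both sides. The gene had a log2 change of -0.28 ± 0.36 (adjusted p = 0.612, edgeR), and it turned from -0.96 without the first control library to 1.07 without the second. Gm15920, a processed pseudogene on chromosome 5 that holds 17.7% of the 50-base stretches of Ndufa12, had 600 and 446 counts after saline and 814 and 503 after IL-12. Within each group the pseudogene was high where Ndufa12 was low. Summed, the pair had 769 and 1137 counts after saline and 1086 and 937 after IL-12, a log2 change of 0.08 ± 0.11 (adjusted p = 0.628, edgeR). Ndufs5, another accessory subunit gene, had 110 to 161 counts per library, fewer than the 637 to 731 of its processed pseudogene BC002163. Counts of genes with such copies are uncertain.

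Ndufa4, now placed with complex IV by its position in the purified enzyme, was the nuclear gene named for complex I with the highest level, at 101 FPKM. Its log2 change was 0.06 ± 0.04 (adjusted p = 0.298, edgeR). Its paralog Ndufa4l2, known as a hypoxia-induced gene, had 4 and 4 counts after saline and 7 and 9 after IL-12 and was not tested. With both genes counted in complex IV, the nuclear median was 0.01 for complex I and 0.02 for complex IV.

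Complex II held 0 called genes. Sdha, the flavoprotein that oxidises succinate, was at 217 and 228 CPM after saline and 214 and 206 CPM after IL-12, a log2 change of -0.08 ± 0.04 (adjusted p = 0.122, edgeR). With total counts as the only scaling it was called lower (-0.12, adjusted p = 0.0207). Sdhb, the iron-sulfur subunit bound to it, was at 66.8 and 66.7 CPM after saline and 73.7 and 69.7 CPM after IL-12, a log2 change of 0.10 ± 0.05 (adjusted p = 0.147). Neither pair of groups overlapped, and the products of these genes form the catalytic head of the complex together. The membrane anchor genes Sdhc and Sdhd had log2 changes of 0.01 and 0.02. Sdhd had the highest level of the complex, at 63.7 FPKM.

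Complex III held 2 called genes, both higher. mt-Cytb (ENSMUSG00000064370, MT:14145-15288), the cytochrome b that carries both quinone-binding sites, was at 4004 and 3981 CPM after saline and 4205 and 4326 CPM after IL-12. The control libraries were close together and both IL-12 libraries were above them. The log2 change was 0.10 ± 0.02 (adjusted p = 0.00229, edgeR), a rise to 1.07-fold. It was still called with any single library left out, and was not called with total counts as the only scaling, where its log2 change was 0.05 (adjusted p = 0.0684). Over the 17 other fits its adjusted p ranged from 0.000158 to 0.260. Uqcrq (ENSMUSG00000044894, chr11:53427922-53430831), a small subunit next to cytochrome b, was at 97.6 and 109 CPM after saline and 123 and 115 CPM after IL-12. This was a log2 change of 0.20 ± 0.05 (adjusted p = 0.00733, edgeR). It was not called without the first control library (adjusted p = 0.146) or without the first IL-12 library (adjusted p = 0.183), and its adjusted p over the 17 other fits ranged from 9.70e-05 to 0.204. The other 7 nuclear members were not called. The core protein genes Uqcrc1 and Uqcrc2 had log2 changes of 0.07 and 0.05, and Uqcr10, with the highest nuclear level in the complex at 110 FPKM, had 0.03.

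In complex IV both calls were mitochondrial genes, and both were lower. mt-Co1 (ENSMUSG00000064351, MT:5328-6872), the subunit with the oxygen-reducing centre, was at 7342 and 7051 CPM after saline and 6793 and 6932 CPM after IL-12. The log2 change was -0.07 ± 0.02 (adjusted p = 0.0238, edgeR), a change to 0.954-fold. It was not called without the first control library or without either IL-12 library. Summing its counts with the 92 to 127 counts per library of Gm29216 left the log2 change at -0.07. Gm29216 holds 28.7% of the 50-base stretches of mt-Co1, of which 51.1% are shared, and no other copy was added. mt-Co1 and mt-Cytb moved in opposite directions, so that their ratio, which needs no scaling between libraries and was chosen after the values were seen, was 1.83 and 1.77 after saline and 1.62 and 1.60 after IL-12. The ratio of the IL-12 mean to the control mean was 0.893, and the groups did not overlap. The ratio of mt-Nd2 to mt-Co1 likewise did not overlap, at 0.303 and 0.311 after saline and 0.337 and 0.337 after IL-12. Each of these genes alone already separated the groups, in opposite directions within each ratio. The separation of both ratios follows from this and is not further evidence.

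mt-Co2 (ENSMUSG00000064354, MT:7013-7696), which accepts electrons from cytochrome c, was the mitochondrial gene with the largest called change. It had 747 and 541 counts after saline and 506 and 473 after IL-12. After scaling these were 39.4 and 28.7 CPM against 25.6 and 26.1 CPM, so that the control libraries differed from each other by more than the second of them differed from the IL-12 libraries. The log2 change was -0.40 ± 0.11 (adjusted p = 0.00834, edgeR). Without the first control library it was -0.15 (adjusted p = 0.345), and it was not called without either IL-12 library. The identical copy Gm28661 had 254 and 580 counts after saline and 283 and 272 after IL-12, and was thus high in the control library in which mt-Co2 was the lower. Summed, the 2 rows had 1001 and 1121 counts after saline and 789 and 745 after IL-12. The log2 change of the sum was -0.47 ± 0.07 (adjusted p = 1.69e-05, edgeR), and the groups did not overlap. The sum was tried after the data were seen. Since the 2 sequences are the same, the counts cannot say which of the loci the reads came from. The remaining mitochondrial gene of complex IV, mt-Co3, overlapped between the groups (log2 change -0.03, and 0.00 when summed with Gm28437).

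**Figure D4:**
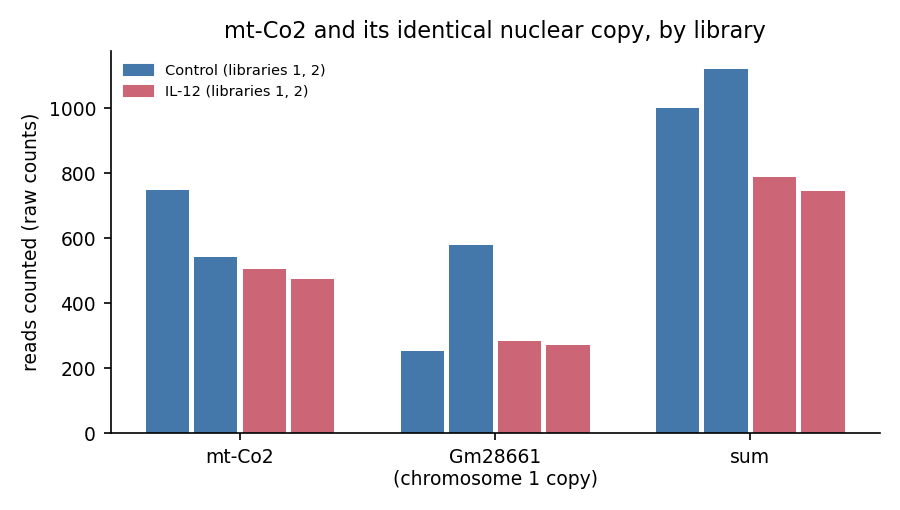
Bars give the reads counted on mt-Co2, on its identical chromosome 1 copy Gm28661 and on both together in the 2 control and the 2 IL-12 libraries. The control libraries differ in how the reads divide between the rows (747 and 254 against 541 and 580), and the sums are 1001 and 1121 in the control group and 789 and 745 in the IL-12 treatment group.

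The 12 nuclear complex IV genes tested included 0 calls. Their p-values were smallest for Cox7a2l, a factor that joins complexes III and IV into supercomplexes, for Cox7c and for Cox6c. Cox7a2l was at 75.4 and 80.1 CPM after saline and 73.7 and 69.4 CPM after IL-12, a log2 change of -0.12 ± 0.05 (adjusted p = 0.101, edgeR), and was called lower with total counts only (adjusted p = 0.0273). Cox7c overlapped between the groups (log2 change 0.12 ± 0.05, adjusted p = 0.109), and Cox6c did not (0.07 ± 0.05, adjusted p = 0.273). Several complex IV subunits have paralogs that are used in different tissues. The ubiquitous forms dominated here: Cox4i1 was at 264 FPKM, Cox6a1 at 402, Cox6b1 at 154, Cox7a2 at 72.2, Cox7b at 66.4 and Cox8a at 404, the highest of the nuclear members. The muscle forms Cox6a2, Cox7a1 and Cox8b had 5 to 9, 3 to 6 and 0 to 1 counts per library. The testis form Cox6b2 had 0 to 5 counts per library, and Cox7b2 and Cox8c were at 0 in each of the 4 libraries, below the floor of 3 counts. Cox4i1 overlaps Emc8 on the opposite strand and shares 6.23% of its 50-base stretches with it. Without the strand setting of the counting, reads from those stretches cannot be told apart. Cox4i2, the form known from lung and low oxygen, had 9 and 6 counts after saline and 14 and 11 after IL-12. Its interval on the log2 scale ran from -0.38 to 1.83, so that a difference was not detectable at this depth. The log2 changes of Cox4i1, Cox6a1, Cox6b1, Cox7a2, Cox7b and Cox8a lay between -0.05 and 0.05, and their intervals were within 1.5-fold.

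Complex V held 2 called genes among 17 nuclear members tested. Atp5b (ENSMUSG00000025393, chr10:128083273-128090391), the catalytic beta subunit of the F1 head, was at 1045 and 1068 CPM after saline and 1126 and 1097 CPM after IL-12. It was the nuclear member with the most counts, and its log2 change was 0.07 ± 0.03 (adjusted p = 0.0420, edgeR). The groups did not overlap, but it was called in 7 of the 17 other fits, and among those that left out a library only in the one without the second IL-12 library. The 5 genes of the F1 head, Atp5a1, Atp5b, Atp5c1, Atp5d and Atp5e, all had positive log2 changes, from 0.01 to 0.08, and only Atp5b passed the test. The sign was not stable, since Atp5c1 and Atp5e turned negative with total counts only, without the first control library and without the first IL-12 library, and Atp5c1 also with upper-quartile scaling. Atp5g1, Atp5g2 and Atp5g3 encode the same mature c subunit of the membrane ring with different import sequences. Their levels were 11.99, 67.5 and 99.6 FPKM, and their log2 changes were 0.07, 0.01 and 0.07, with 0 calls. Of the peripheral stalk genes 0 of 4 were called, and a second gene named Atp5o (ENSMUSG00000116933), which shares its locus with Donson, was listed at 0 in each library. Atp5k, a small subunit at the interface of ATP synthase dimers, was at 33.9 and 39.2 CPM after saline and 43.3 and 39.4 CPM after IL-12. The gene had a log2 change of 0.18 ± 0.08 (adjusted p = 0.0868, edgeR).

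Atp5s (ENSMUSG00000054894, chr12:69724950-69744660) had the largest called change of all members. It encodes a coupling factor named with the ATP synthase that is not one of its structural subunits. It had 235 and 203 counts after saline and 161 and 153 after IL-12, or 12.4 and 10.8 CPM against 8.14 and 8.46 CPM. Both IL-12 libraries were below both control libraries. The log2 change was -0.48 ± 0.13 (adjusted p = 0.00771, edgeR), a change to 0.716-fold. It was not called without the first control library (adjusted p = 0.0971) or without the first IL-12 library (adjusted p = 0.0875), and its adjusted p over the 17 other fits ranged from 0.00240 to 0.0971. mt-Atp6, the membrane subunit beside the c ring, was at 18.95 and 16.1 CPM after saline and 21.5 and 18.5 CPM after IL-12. The groups overlapped, with a log2 change of 0.19 ± 0.11 (adjusted p = 0.197, edgeR), and of 0.07 when summed with Gm10925.

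**Figure D5:**
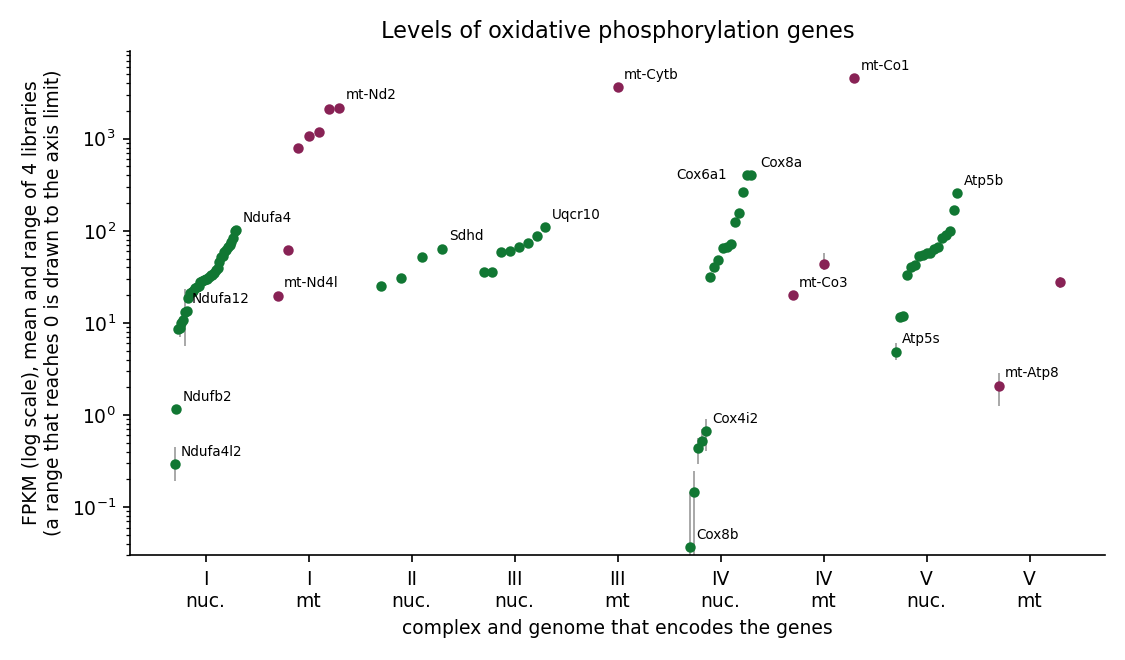
Each point is the mean FPKM of 1 member over the 4 libraries on a log axis, with the range as a line, sorted within complex and genome; members at 0 in all 4 libraries are left out. Nuclear levels reach 404 FPKM for Cox8a, while the mitochondrial genes run from 2.08 FPKM for mt-Atp8 to 4551 FPKM for mt-Co1.

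The levels of nuclear members spread widely within a complex. The median level was 29.6 FPKM for nuclear complex I, 41.7 for complex II, 63.6 for complex III, 44.1 for complex IV and 56.2 for complex V, although the subunits of a complex are present in fixed numbers. These medians include members with too few counts to test, 6 of 18 in complex IV. Over the tested members the medians were 29.8, 41.7, 63.6, 69.3 and 57.1 FPKM for complexes I to V, with complex IV the highest. Among the nuclear genes named for complex I the levels ran from 0.291 FPKM for Ndufa4l2 to 101 for Ndufa4. Without these 2 genes they ran from 1.15 to 98.8 FPKM. FPKM rests on the gene length in the table, which was 5628 bases for Ndufb2 and 8086 for Ndufs1 but 545 for Cox8a. Ndufb2 was at 1.15 FPKM with 120 to 127 counts per library.

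Promoters of the nuclear members were searched for short motifs of factors known from respiratory genes. Of the 85 nuclear members, 66 matched a RefSeq promoter (GRCm38.p6), taken from 250 bases before to 50 bases after a gene start, and both strands were read. The letters GCGCATGCG, from the binding motif of the nuclear respiratory factor NRF1, were present for 8 of the 66 members (12.1%) and for 2.61% of 17491 protein-coding genes. CCGGAAG, the core that ETS factors such as GABPA bind, was present for 16 members (24.2%) against 12.9%. AAGATGGCG, from the motif of YY1, was present for 7 members (10.6%), 5 of them in complex I (Ndufa9, Ndufc1, Ndufs4, Ndufs6 and Ndufs7), against 2.14%. The TATA box letters TATAAA were present for 7 members (10.6%) against 14.8%. The motifs do not contain one another. The members with the NRF1 letters were Atp5g2, Atp5k, Atp5l, Cox6a1, Ndufa8, Ndufa11, Uqcr11 and Uqcrc1, of which 0 were called. Of all nuclear members tested 6.49% were called, so that 0 of 8 cannot set these genes apart from the rest. A match is a description of the letters and not of binding. For 3 of the 4 members whose match lies before the start on the strand of the gene (Ndufa11 is the other), the stretch is given with the match in capitals, for Atp5g2 at chr15:102671061-102671109, for Atp5k at chr5:108434421-108434469 and for Cox6a1 at chr5:115349092-115349140, all on the minus strand:
Atp5g2: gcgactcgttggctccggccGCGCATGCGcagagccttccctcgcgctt
Atp5k: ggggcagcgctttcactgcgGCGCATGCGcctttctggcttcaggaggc
Cox6a1: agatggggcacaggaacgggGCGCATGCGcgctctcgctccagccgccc

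Assembly factors, and subunits and carriers with other names, were called in larger shares than the members (11.2%). Both shares were below that of all genes (30.5%), and the shares were compared without a test. Of 45 assembly factors tested, 9 were higher and 2 were lower (24.4%), with a median log2 change of 0.10. Ndufaf4, a complex I assembly factor, was at 20.3 and 20.3 CPM after saline and 30.6 and 29.1 CPM after IL-12, a log2 change of 0.56 ± 0.08 (adjusted p = 3.23e-05, edgeR). Cox18, which inserts mt-Co2 protein into the membrane, was at 28.4 and 28.2 CPM after saline and 39.9 and 37.1 CPM after IL-12, a log2 change of 0.44 ± 0.07 (adjusted p = 9.24e-05). Both rose, and for both the spread within each group was small beside the difference. Of 5 subunits and carriers with other names (Ndufab1, Cyc1, Cycs, Usmg5 and Atpif1), only Cycs was called. Cycs, the cytochrome c that carries electrons from complex III to complex IV, was at 90.2 and 93.7 CPM after saline and 111 and 107 CPM after IL-12, a log2 change of 0.24 ± 0.05 (adjusted p = 0.000575, edgeR). Cyc1, the cytochrome c1 of complex III, had a log2 change of 0.10 ± 0.05 (adjusted p = 0.135).

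Of 30 genes for the replication and transcription of mitochondrial DNA and the processing of its RNA, 10 were higher and 1 was lower (36.7%), with a median log2 change of 0.16. The genes with the smallest p were Tbrg4, a FASTK-family protein that acts on mitochondrial RNA, and Lrpprc, which stabilises mitochondrial mRNAs. Tbrg4 was at 43.2 and 45.2 CPM after saline and 59.2 and 61.6 CPM after IL-12, a log2 change of 0.45 ± 0.06 (adjusted p = 8.00e-06, edgeR). Lrpprc was at 65.7 and 68.4 CPM after saline and 86.9 and 82.9 CPM after IL-12, a log2 change of 0.34 ± 0.05 (adjusted p = 3.87e-05). The median of the 12 mitochondrial genes tested, which these factors act on, was -0.01.

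Measures of library make-up were set beside the mitochondrial values. The mitochondrial rRNAs took 0.0262% and 0.0248% of counts after saline and 0.0241% and 0.0246% after IL-12, and mitochondrial tRNA genes took 0.00375% to 0.00395% in all 4. Replication-dependent histone genes, whose mRNAs lack a poly(A) tail, took 0.00503% and 0.00505% after saline and 0.00440% and 0.00403% after IL-12. Malat1, a nuclear RNA, took 0.175% and 0.173% after saline and 0.114% and 0.133% after IL-12. As shares of total counts, the groups did not overlap for any of these 4 measures. For the rRNA and tRNA shares this holds for total counts only, without the scaling used for the gene tests. Their ratios of the IL-12 mean to the control mean were 0.955 and 0.963, against 0.837 for histone genes and 0.710 for Malat1. The part of these measures in the small differences of the mitochondrial genes was not tested.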

How the data were processed

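RNA-sequencing of 4 libraries was analysed (2 control, 2 IL-12). The authors deposited raw counts per gene, not normalized, and FPKM values, in which counts are scaled to gene length and library size. How RNA was selected for the libraries is not given in the sources used here. Per the labels, HISAT2, StringTie and mm9 were named, whereas the gene coordinates equalled GENCODE M21 (GRCm38) for 98.3% of 54495 genes and 92 of 98 members, and were used as such. How reads with several matches and strand were handled is not given in the sources used here.

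The members and lists were chosen with earlier results of these data known. Counts were filtered with edgeR's filterByExpr (minimum 10 counts, 15 in total; 14095 genes), scaled by TMM (factors 1.02, 1.01, 0.985 and 0.987) and tested with edgeR 4.0.16's quasi-likelihood test in R 4.3.3 with Benjamini-Hochberg adjustment over all genes tested. The tests were checked on simulated counts. Shares and ratios per library were described by whether the groups overlapped, since an exact permutation test of 2 against 2 libraries cannot reach the threshold. The 2 libraries within each group differed beyond counting noise (chi-square per degree of freedom 2.13 and 2.41 over all genes, against 16.4 to 19.7 between groups, and 8.69 and 5.56 over the members, against 8.56 to 15.8). They were therefore not merged as 1 library, which does not show that they are separate cultures. Sharing was the percentage of 50-base stretches of a gene's GENCODE M21 transcripts found in another gene's transcripts on either strand. Standard errors are log2 fold changes divided by the square root of F.

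Named genes were all mitochondrial genes, for each complex the 3 nuclear members with the smallest p and the one with the highest FPKM, the tissue isoforms, and the 2 genes with the smallest p of each other list. A gene that this rule picks is left out here. Genes outside this rule are named to describe a group or a copy, after their values were seen. Alternatives were other scalings, filters, tests (DESeq2 1.42.0, limma 3.58.1 voom, limma on log2(FPKM + 1) and log2(FPKM + 0.1)), the replicate block, fits restricted to protein-coding genes, fits without each library in turn and an adjusted p below 0.01. Adding the counts of pseudogene copies that share at least 10% was chosen after seeing the data. Figures were drawn with matplotlib 3.10.9.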

Additional observations from a re-analysis of the deposited data

How the results depend on the processing

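Depth limits the members under about 15 counts, for which no difference was detectable. With the settings of the report 2 nuclear members were called higher and 3 lower, and 3 mitochondrial members higher and 2 lower. Nuclear calls higher numbered 1 with upper-quartile scaling, total counts, the replicate block, the DESeq2 Wald test or an adjusted p below 0.01, and 0 without a filter or with limma on log2(FPKM + 1) or log2(FPKM + 0.1). Nuclear calls lower numbered 6 with total counts, 1 without a filter, with limma on log2(FPKM + 1) or at 0.01, and 0 with the DESeq2 Wald test or limma on log2(FPKM + 0.1). Mitochondrial calls higher numbered 1 with upper-quartile scaling, the replicate block, the DESeq2 Wald test or at 0.01, and 0 with total counts or either limma on FPKM. Mitochondrial calls lower numbered 1 at 0.01 and 0 without a filter, with the DESeq2 Wald test or either limma on FPKM. Of all genes, 30.5% were called with upper-quartile scaling, 30.9% with total counts and 30.8% with the replicate block. The share was 12.9% without a filter and 19% with the DESeq2 Wald test. It was 15.7% with limma on log2(FPKM + 1) and 7.8% with limma on log2(FPKM + 0.1). With total counts only, which moved the median of all genes to -0.04, the median log2 fold change of mitochondrial members was -0.0466 and that of nuclear members -0.02. The cause was not tested.

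Leaving out 1 library in turn gave 0 to 4 nuclear calls higher, 1 to 3 lower, 1 mitochondrial call higher and 0 to 2 lower, a median log2 fold change of mitochondrial members from -0.0397 to 0.0242 and of nuclear members from -0.02 to 0.05, and 0 to 1 members past the screening criteria. The 1 was Ndufa12, whose log2 fold change ran from -0.96 to 1.07. A group with 1 library is then assumed to vary like the other.

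Of 1601 values for single members under the alternatives, 1512 kept their call and direction or were called in neither fit, 78 lost and 10 gained a call, and 1 reversed. The groups share the numbers 1 and 2 only in the labels. Same-numbered libraries did not deviate together over all genes (correlation -0.0267). Over the 89 members the correlation was 0.55. Of the members tested, Ndufa12 had the widest spread within both groups (4.10-fold after saline, 1.74-fold after IL-12) and was lower in library 1 of each. The correlation without Ndufa12 was not computed, so 0.55 does not show a shared deviation of the members as a set. With the replicate block, 1 of the 89 members differed between the numbers, against 29 of all 14095 genes tested. The mitochondrial calls with this block were 1 higher and 2 lower, with 1 higher and 3 lower among the nuclear members. The shares of counts and their ratio moved by less than the spread between libraries under every denominator tried.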

Other observations

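Mitochondrial ribosomal proteins, which translate the 13 mitochondrial mRNAs, rose in part. Of 77 tested, 24 were higher and 1 was lower (32.5%), with a median log2 change of 0.13, against 30.5% called and a median of -0.0022 over all genes tested. Mrpl3, of the large subunit, was at 76.8 and 77.5 CPM after saline and 109 and 105 CPM after IL-12, a log2 change of 0.48 ± 0.05 (adjusted p = 3.16e-07, edgeR's quasi-likelihood test). Mrps2, of the small subunit, was at 30.0 and 30.6 CPM after saline and 40.3 and 41.2 CPM after IL-12, a log2 change of 0.43 ± 0.07 (adjusted p = 7.56e-05). Mrps11 was the 1 gene that was lower, with a log2 change of -0.32 ± 0.08 (adjusted p = 0.00480).

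Of 11 regulators of mitochondrial biogenesis tested, 2 were higher and 1 was lower (27.3%). Pprc1 and Ppargc1a, which encode coactivators of the same family, moved in opposite directions. Pprc1 was at 99.6 and 106 CPM after saline and 150 and 142 CPM after IL-12, a log2 change of 0.51 ± 0.05 (adjusted p = 1.20e-07, edgeR). Ppargc1a had 131 and 119 counts after saline and 70 and 53 after IL-12, a log2 change of -1.03 ± 0.18 (adjusted p = 0.000236). Of 17 genes of the tricarboxylic acid cycle and pyruvate dehydrogenase, 2 were higher and 1 was lower (17.6%). Idh3a, the catalytic subunit of NAD-dependent isocitrate dehydrogenase, had a log2 change of 0.42 ± 0.05 (adjusted p = 1.57e-06), and Pdhb, of pyruvate dehydrogenase, had -0.19 ± 0.05 (adjusted p = 0.00647). The lists are described by their counts and medians only.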
